A study of Homo sapiens with 12 samples.

Results

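The genes described are the subunits of the proteasome and the proteins that assemble, activate or inhibit it. They were taken from the gene table by biotype and name: protein-coding genes whose symbol is PSMA, PSMB, PSMC, PSMD, PSME or PSMG followed by a digit, plus PSMF1. The rule found 49 genes among the 58735 rows of the table, where 86 rows of any biotype carry a matching name. By their known roles the 49 are 8 core alpha subunits, 7 constitutive core beta subunits, 6 genes of the immunoproteasome and its relatives, 3 other activators or inhibitors, 6 ATPases and 11 other subunits of the 19S regulatory particle, and 7 assembly chaperones. The remaining gene, PSMC3IP, matches by name only: it encodes a protein of homologous recombination and is no part of the proteasome.

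The proteasome is the protease that destroys most proteins tagged with ubiquitin. Its barrel-shaped core is a stack of alpha and beta rings with the active sites of PSMB5, PSMB6 and PSMB7 facing inward, and the 19S particle at its ends recognises ubiquitin, removes it, unfolds the substrate with its ATPase ring and feeds it in. In cells exposed to interferon, and at a basal level in many cells, PSMB8, PSMB9 and PSMB10 take the place of the constitutive active-site subunits and change which peptides reach class I molecules. When proteasome activity falls short, the transcription factor NRF1 (gene NFE2L1) is known to raise most of these genes together through antioxidant response elements in their promoters.

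The samples were 12 RNA-seq libraries of the established mesothelioma line MSTO-211H, kept as floating cells in medium with EGF and bFGF and described by the submitters as mesothelioma-initiating. The design crosses an agent named only as QTP with radiation, and RNA was taken 48 hours after irradiation. The groups, each of 3 libraries, were Combo (10 µM QTP and 4 Gy), Rx (10 µM QTP and sham irradiation), IR (vehicle and 4 Gy) and Con (vehicle and sham irradiation). The reading of the labels Combo and Rx follows from the 4 arms of the design text, since the labels do not spell them out. All libraries come from 1 cell line. No label ties the libraries of a group to separate flasks, so the p-values rest on a spread between libraries that may be technical. Values are FPKM, reads per kilobase of gene scaled to the library, as deposited. The libraries held 13188257 to 18630958 reads assigned to genes. Of the mesothelial and simple epithelial markers, KRT18 (549 FPKM on average over the 12 libraries), KRT8 (477 FPKM), MSLN (40.1 FPKM) and CALB2 (20.2 FPKM) were high. KRT19 (0.0502 FPKM), WT1 (0.955 FPKM) and PDPN (listed at 0) were not, and none of 8 markers of immune or endothelial cells averaged above 0.0522 FPKM.

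Transcripts of nearly every proteasome gene were present in these cells. To enter the test a gene needed an average of 1 FPKM or more across the libraries, and 45 of the 49 genes had it. The 4 below it were PSMA2 (0.871 FPKM), PSMA6 (0.675 FPKM), PSMB11 (0.0149 FPKM) and PSMA8 (0). The lowest gene above it was PSMD9 (1.24 FPKM). PSMA8 is the alpha subunit of testis, where it replaces PSMA7. It had no read in any library, and 3 reads, the most that a count of 0 allows by counting error alone, would be 0.0828 to 0.119 FPKM. PSMB11 is the beta subunit of cortical thymic epithelium. Its 6 reads in all were spread over 4 libraries, with no more than 2 in a library, while the other 8 libraries had none.

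Among core alpha genes the highest was PSMA7, the alpha4 subunit, at 118 FPKM, the highest level of all 49 genes, and among core beta genes PSMB5 (84.9 FPKM), the chymotrypsin-like active site, was highest and PSMB2 (20.1 FPKM) lowest. PSME1, a subunit of the PA28 activator ring induced by interferon, reached 94.7 FPKM. The ATPases ran from 7.94 FPKM for PSMC1 to 30.6 FPKM for PSMC3, and the other 19S subunits from 7.86 FPKM for PSMD6 to 56.2 FPKM for PSMD2. Assembly chaperones ran from 1.24 FPKM for PSMD9 to 22.1 FPKM for PSMD10. The order of genes rests in part on the annotated exon length that FPKM divides by. That length was 1750 bases for PSMA7 and 8774 for PSMD9, with 882 and 778 coding bases. By reads over all libraries PSMD2 (60730) exceeded PSMA7 (40401).

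**Figure D1:**
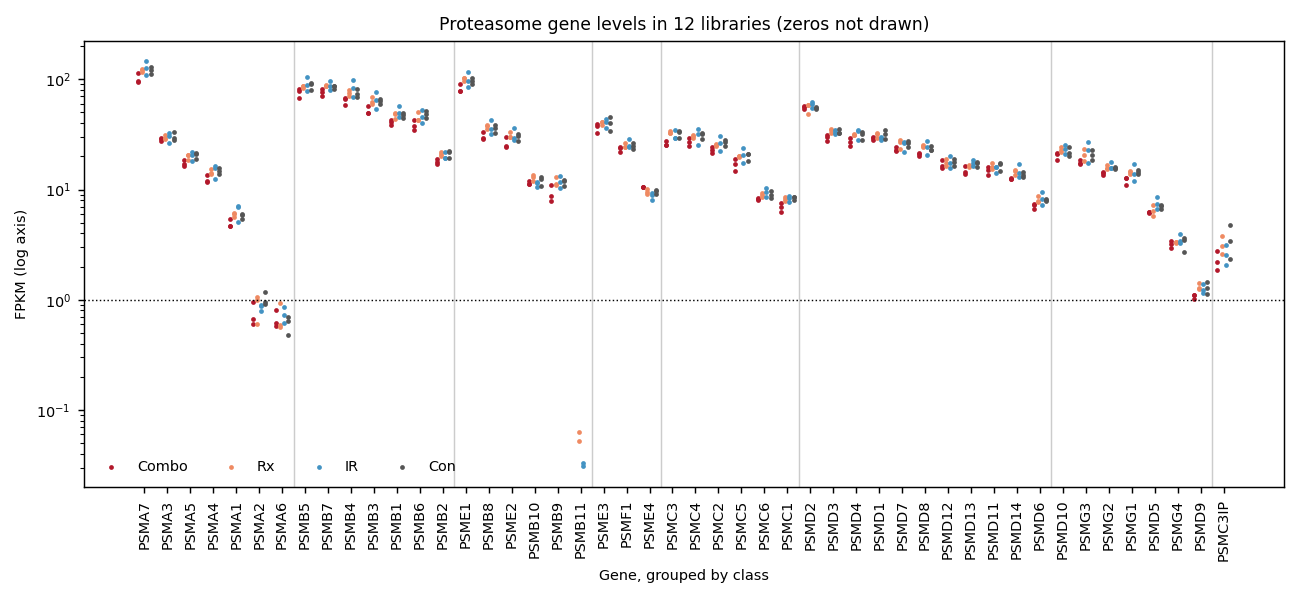
FPKM per library (log axis) for 48 of the 49 genes, ordered by mean within class; from left to right the classes are core alpha, core beta, immunoproteasome, other activators and inhibitor, 19S ATPases, other 19S subunits, assembly chaperones and PSMC3IP. Points are libraries of Combo, Rx, IR and Con, and the dotted line marks 1 FPKM; PSMA2, PSMA6 and PSMB11 have means under it, and PSMA8 and the zeros of PSMB11 are not drawn.

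Subunits of 1 ring are assembled in equal numbers, yet the levels of the alpha genes spanned 0.675 to 118 FPKM without PSMA8. The table's gene lengths equal the exon lengths of GENCODE release 29 for all 58735 genes, so that annotation was used to see which members share exons with other genes. In 5 members at least 50% of the coding bases also lie in exons of another protein-coding gene on the same strand, in each case a gene known only by a clone-based identifier. These are PSMA2 (97.1% of coding bases, chr7:42916857-42932223, minus strand), PSMA1 (88.6%, chr11:14504874-14643635, minus), PSMA6 (70.4%, chr14:35278633-35317493, plus), PSMD9 (58.7%, chr12:121888731-121918297, plus) and PSMB10 (58.3%), all in hg38. Their mean levels ran from 0.675 to 11.9 FPKM with a median of 1.24 FPKM. The 41 other proteasome genes, without PSMA8, PSMB11 and PSMC3IP, had a median of 24.7 FPKM. Among alpha subunits, the 3 with the overlap stood at 0.675 to 5.73 FPKM and the 4 others with transcripts at 14.1 to 118 FPKM, so these ranges did not meet. How reads that fit 2 genes were counted, and whether strand was used, is not given in the sources used here, so the part of the overlap in these levels was not tested, and the levels of these 5 genes are uncertain. The part of annotated exon length, which also differs between members, was not tested either. The overlapping genes themselves had 0.659 FPKM (AC040162.1 over PSMB10), 0.101 FPKM (AL121594.1 over PSMA6), 0.0162 FPKM (AC010132.3 over PSMA2) and 0.0133 FPKM (AC069503.2 over PSMD9), and AC018523.2 over PSMA1 was listed at 0. On the opposite strand, 47.7% of the coding bases of PSMC1 lie in exons of NRDE2 (1.41 FPKM) and 28.4% of those of PSMD7 in exons of a noncoding gene. Of 32 pseudogene rows with a proteasome name, 26 were under 0.1 FPKM and 1 exceeded 1 FPKM (PSMC1P1, 2.67 FPKM), so the level of PSMC1 is uncertain as well.

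**Figure D2:**
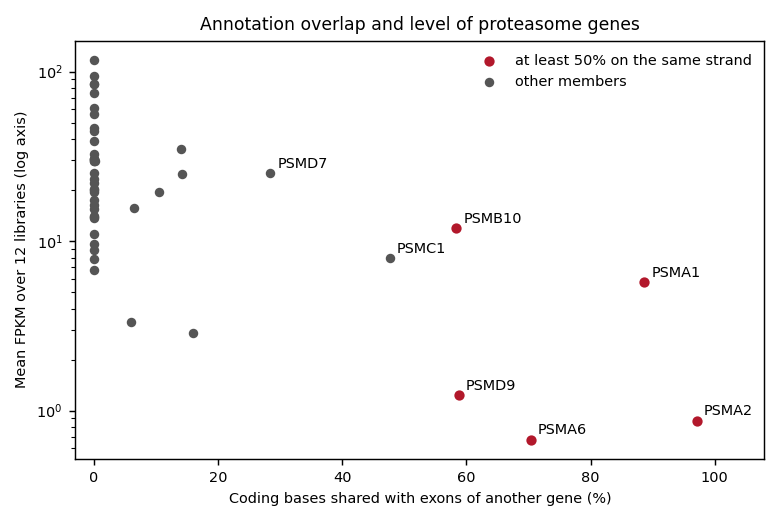
Mean FPKM over the 12 libraries (log axis) of the members with transcripts against the percentage of their coding bases that lie in exons of another gene on either strand. Red points are the 5 genes with at least 50% on the same strand, between 0.675 and 11.9 FPKM; grey points are the other members.

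Proteasome genes are known as targets of NRF1, and their promoters were read for the core of the antioxidant response element. RefSeq promoters (GRCh38.p14) matched 42 of the 48 genes other than PSMC3IP, and the table used had no entry for PSMA7, PSMB1, PSMB6, PSMB7, PSMD4 and PSMG3. The letters TGACNNNGC, in either orientation within 250 bases before the start, were in 11 of the 42 promoters (26.2%), against 10.9% of all 35116 RefSeq promoters. The CCAAT box, the letters CCAAT in either orientation, was in 18 of 42 (42.9%), against 32.0% of all promoters. The windows of 59 bases that follow are from the gene's own strand, 5′ to 3′, with the match in capitals; they are shown because PSMD3 and PSMG2 had all Combo libraries below all others, PSMB3 and PSMB9 are core and inducible beta subunits, and PSME4 is the member that differed in the other direction.
PSMD3 (chr17:39980745-39980803, plus strand): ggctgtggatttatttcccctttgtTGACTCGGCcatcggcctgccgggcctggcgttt
PSMG2 (chr18:12658674-12658732, plus strand): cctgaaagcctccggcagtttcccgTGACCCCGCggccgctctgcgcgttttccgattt
PSMB3 (chr17:38752612-38752670, plus strand): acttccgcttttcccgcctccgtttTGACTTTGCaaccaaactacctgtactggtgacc
PSMB9 (chr6:32854019-32854077, plus strand): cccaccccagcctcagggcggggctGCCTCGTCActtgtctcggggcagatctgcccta
PSME4 (chr2:53970994-53971052, minus strand): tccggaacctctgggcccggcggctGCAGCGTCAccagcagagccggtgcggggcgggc
In PSMD3, PSMG2 and PSMB3 the letters run as written, and in PSMB9 and PSME4 as the reverse complement. The first base of the match lies 37 bases before the start in PSMD3, 39 in PSMG2, 104 in PSMB3, 148 in PSMB9 and 34 in PSME4. The letters were not found in the windows of PSMC3 or PSMC1. A match is a description of these letters only.

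In the Combo libraries most proteasome genes had lower mean levels than in the other groups, in core, regulatory and assembly genes alike. Against Con, 43 of the 45 tested genes had a lower fitted mean, where 51.5% of all 13038 tested genes did. After rescaling to TPM 43 did as well, where 52.4% of all genes did. The median change of the 45 was -0.20 on the log2(FPKM + 1) scale, against -0.01 for all genes tested and -0.04 for the 4319 genes that averaged 10 FPKM or more. All 3 Combo libraries were below all 3 Con libraries for 22 members, where 12.8% of all genes were, and above them for 1 member, PSME4, where 10% were. No member passed the limma test in Combo against Con at an adjusted p of 0.05 (0 of 45), nor did any gene in the table (0% of 13038), and limma voom on recovered reads also called 0 members. At an unadjusted p under 0.05 by limma, 15 members were lower, where 7.69% of all genes were. Voom gave 21 lower (8.48% of all genes) and rescaling to TPM 26 (9.43%). Members higher at that p numbered 0, where 5.49% of all genes were. That count of 15 depends on single libraries. It was 3 without Combo 3 (3.61% of all genes) and 4 without Combo 2 (6.21%). Without Con 2 it was 3 (4.22%), and without Con 3 it was 5 (5.26%). It was 24 without IR 1 (9.53%) or without IR 3 (9.52%), which enter through the shared estimate of the spread. Of the 4319 genes averaging 10 FPKM or more, 2611 had a lower fitted mean and 859 had all Combo below all Con libraries. By limma, 499 of them were lower at an unadjusted p under 0.05. Fewer cells of a kind and less RNA per cell cannot be told apart in such bulk libraries.

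Taken library by library, the median member stood at 92.8%, 87.4% and 82.5% of its Con mean in the Combo libraries 1 to 3. It stood at 103%, 99.8% and 98.0% in Rx, at 90.4%, 101% and 114% in IR, and at 93.0%, 102% and 104% in Con. The Combo libraries thus lay below every Rx library, while IR 1 lay between Combo 1 and Combo 2 and Con 1 was level with Combo 1. For all tested genes the same measure lay between 98.0% and 102% in every library. The deposited values were already scaled to hold the median gene level between libraries, so this narrow range was largely set in advance. Combo 3 was the lowest of the 12 libraries for 62.2% of the members and for 19.7% of all genes, and IR 3 was the highest for 73.3% of the members and 23.3% of all genes. Combo 3 also had the most genes with a read (26527) and IR 3 the fewest (23102). IR 3 had the highest share of mitochondrial reads (10.5%) and the largest FPKM sum (356770, against 282319 to 319465 in the others). The part of these library properties in the results was not tested. Without Combo 3 the median change against Con was -0.15, with 43 of 45 members still lower, where 49.9% of all genes were.

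**Figure D3:**
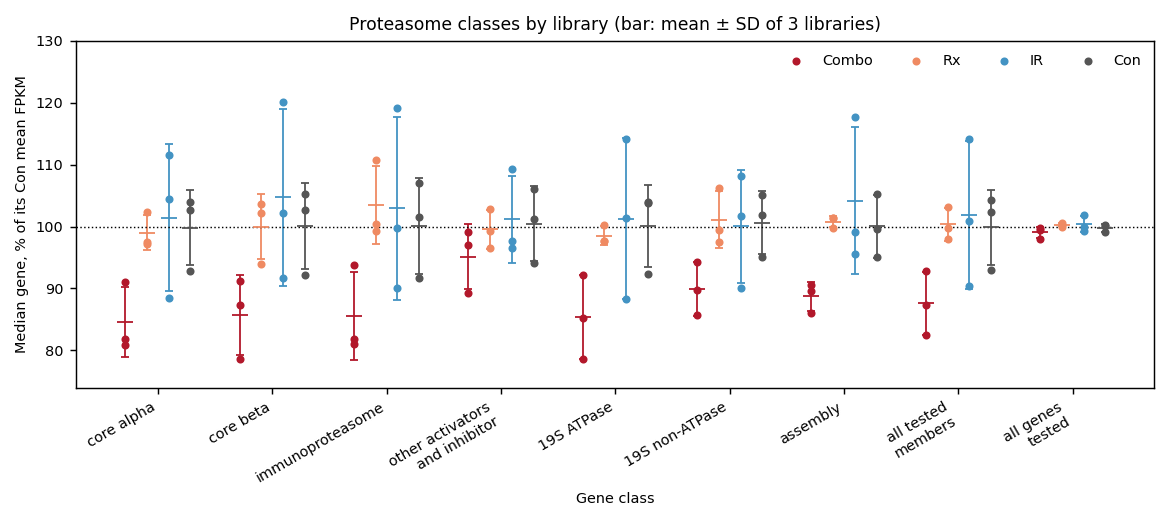
For each class, the median over its tested genes of the FPKM as a percentage of that gene's Con mean, per library (points) with the mean ± SD of 3 libraries, in the order Combo, Rx, IR and Con. For all 45 members the Combo libraries sit at 82.5% to 92.8%, and for all 13038 tested genes every library is near 100%. The scaling of the deposited values largely set the level of all tested genes in advance.

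The core alpha subunits form the gated outer ring. All 5 tested ones had lower means in Combo than in Con, with a median log2 change of -0.23. PSMA7 had 113, 96.5 and 94.1 FPKM in Combo, 123, 117 and 121 in Rx, 110.2, 126 and 146 in IR and 111, 129 and 122 in Con. Combo 1 stood within the Con range, and Combo 2 and Combo 3 below every other library. PSMA1, the alpha6 subunit, had 4.65, 4.64 and 5.37 FPKM in Combo, 5.62, 6.18 and 5.94 in Rx, 5.07, 7.0 and 7.09 in IR and 5.38, 5.87 and 5.96 in Con. Here the highest Combo library was just under the lowest Con library, and IR 1 was below Combo 3. The other tested alpha genes were PSMA3, PSMA4 and PSMA5, with log2 changes of -0.08, -0.24 and -0.23 in Combo against Con. Both PSMA4 and PSMA5 had all Combo libraries below all Con libraries, and PSMA3 did not. Under the filter, PSMA2 had 0.607, 0.944 and 0.666 FPKM in Combo and 0.907, 1.18 and 0.947 in Con from 48 to 105 reads per library, and PSMA6 had 0.813, 0.573 and 0.619 FPKM in Combo and 0.478, 0.643 and 0.695 in Con from 52 to 112 reads. Their Combo and Con libraries overlapped.

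All 7 constitutive beta subunits had lower means in Combo than in Con, with a median log2 change of -0.21 and 5 without overlap. The catalytic subunits come first. PSMB6, the caspase-like site (chr17:4796144-4798503, plus strand), had 42.3, 37.4 and 34.5 FPKM in Combo, 50.3, 42.6 and 42.7 in Rx, 40.2, 45.3 and 53.1 in IR and 44.3, 48.5 and 51.3 in Con. Every Combo library was below every Rx and Con library, while IR 1 lay among the Combo values. Its log2 change against Con was -0.33 (SE 0.113, adjusted p 0.273), the third smallest p among members. The chymotrypsin-like PSMB5 had 82.3, 77.95 and 67.7 FPKM in Combo, 86.97, 87.3 and 84.1 in Rx, 78.04, 87.9 and 105 in IR and 79.3, 90.3 and 91.7 in Con. For PSMB7, the trypsin-like site, the values were 82.2, 76.2 and 70.4 FPKM in Combo, 87.2, 88.4 and 86.7 in Rx, 80.6, 87.2 and 97.4 in IR and 80.9, 87.5 and 87.6 in Con. In both genes Combo 1 was above Con 1, so the groups overlapped, and Combo 3 was the lowest library. The log2 changes against Con were -0.20 for PSMB5 and -0.16 for PSMB7.

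The beta subunits without an active site had log2 changes between -0.20 and -0.28. PSMB1 (chr6:170535117-170553341, minus strand) had 42.7, 41.03 and 38.7 FPKM in Combo, 49.1, 48.7 and 43.8 in Rx, 45.02, 49.2 and 57.2 in IR and 44.1, 47.3 and 49.5 in Con. Its Combo libraries were all below those of the other 3 groups. PSMB2 had 19.01, 17.9 and 17.2 FPKM in Combo, 21.8, 21.0 and 20.2 in Rx, 19.4, 19.2 and 22.1 in IR and 19.2, 21.96 and 22.1 in Con, again with no overlap with any group, though Combo 1 and Con 1 were close. The log2 change in Combo against Con was -0.20 for PSMB1, -0.21 for PSMB2, -0.28 for PSMB3 and -0.21 for PSMB4. All 3 Combo libraries were below all Con libraries in each of these 4 genes.

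Immunoproteasome genes were present without any interferon named in the design, and their tested members had lower means in Combo than in Con. PSMB8, PSMB9 and PSMB10 together made up 21.2 ± 0.707% of the FPKM of the catalytic beta genes in Combo, 22.04 ± 0.535% in Rx, 21.0 ± 0.348% in IR and 21.2 ± 0.292% in Con (SD, n = 3 each). The group means thus ran from 21.0% in IR to 22.04% in Rx, with Combo and Con both at 21.2%. The SD between libraries, pooled over the groups, was 0.498%. The differences between groups were not tested. Per length, PSMB8 stood at 41.4% of PSMB5, PSMB9 at 24.9% of PSMB6 and PSMB10 at 14.2% of PSMB7 over the 12 libraries. These percentages rest on annotated exon lengths, 2997 bases for PSMB8 and 3072 for PSMB9 against 1765 for PSMB5 and 1448 for PSMB6. On reads not divided by length the share was 30.6%. The values of PSMB8 (chr6:32840717-32844703, minus strand) were 33.1, 29.5 and 28.9 FPKM in Combo, 38.7, 35.6 and 37.7 in Rx, 32.2, 35.7 and 42.5 in IR and 32.7, 36.2 and 38.2 in Con. PSMB9, its neighbour in the MHC class II region (chr6:32844136-32859585, plus strand), had 10.9, 8.81 and 7.83 FPKM in Combo, 13.01, 11.3 and 10.9 in Rx, 10.3, 11.6 and 13.2 in IR and 10.8, 11.97 and 12.1 in Con. In both genes Combo 2 and Combo 3 were the lowest libraries of all, and Combo 1 just exceeded Con 1. PSMB10 had 11.1, 11.3 and 11.9 FPKM in Combo, 13.6, 12.9 and 11.96 in Rx, 11.8, 10.6 and 11.5 in IR and 10.8, 12.4 and 13.02 in Con. Its Combo libraries lay within the Con range, and its log2 change was -0.07, against -0.22 for PSMB8 and -0.32 for PSMB9. PSMB10 is also 1 of the 5 genes with uncertain levels.

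PA28, the ring of PSME1 and PSME2 that opens the core without ubiquitin, also had lower Combo means. PSME1 had 91.2, 77.8 and 78.4 FPKM in Combo, 103, 102 and 96.0 in Rx, 84.8, 97.02 and 115 in IR and 90.6, 97.2 and 102 in Con. PSME2 had 30.1, 24.6 and 25.04 FPKM in Combo, 33.2, 30.1 and 29.8 in Rx, 27.99, 29.4 and 36.4 in IR and 27.5, 30.3 and 32.2 in Con. Combo 1 was within the Con range in both genes, and the log2 changes against Con were -0.23 for PSME1 and -0.17 for PSME2. All 5 tested immunoproteasome genes were lower in Combo than in Con on average, with a median of -0.22 and 0 of 5 free of overlap.

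The other activators did not share 1 direction. PSME4 (chr2:53864067-53970840, minus strand) encodes PA200, a nuclear activator linked to histone degradation and DNA repair. It had 10.5, 10.5 and 10.5 FPKM in Combo, 9.56, 9.09 and 10.1 in Rx, 9.297, 8.96 and 8.09 in IR and 9.195, 9.74 and 9.96 in Con. The 3 Combo libraries were nearly equal and above all 9 others, and IR 3 was the lowest. The log2 change was 0.11 (SE 0.06405, adjusted p 0.472) in Combo against Con and 0.23 (SE 0.06405, adjusted p 0.171) in Combo against IR. PSME3, the PA28 gamma ring of the nucleus, had 39.6, 37.4 and 32.7 FPKM in Combo, 41.2, 38.6 and 41.1 in Rx, 36.1, 40.6 and 43.7 in IR and 34.03, 40.4 and 45.3 in Con. PSMF1, the inhibitor PI31, had 24.2, 23.9 and 22.04 FPKM in Combo, 24.2, 26.6 and 24.2 in Rx, 24.8, 24.1 and 28.6 in IR and 23.2, 24.7 and 26.2 in Con. Both overlapped between Combo and Con, with log2 changes of -0.12 for PSME3 and -0.08 for PSMF1.

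All 6 ATPases of the 19S base had lower means in Combo than in Con, with a median log2 change of -0.23. PSMC3 (chr11:47418769-47426473, minus strand) had 27.5, 25.6 and 25.2 FPKM in Combo, 33.9, 32.3 and 32.5 in Rx, 29.3, 29.5 and 34.5 in IR and 29.2, 33.8 and 33.5 in Con. Every Combo library was below every library of the other 3 groups. The group means were 26.1 ± 1.22 FPKM in Combo, 32.9 ± 0.861 in Rx, 31.1 ± 2.96 in IR and 32.2 ± 2.55 in Con (SD, n = 3 each). The log2 change against Con was -0.29 (SE 0.0798, adjusted p 0.182), the smallest p of the members in that comparison. PSMC1 (chr14:90256495-90275429, plus strand), whose tail helps to open the core's gate, had 7.51, 6.95 and 6.28 FPKM in Combo, 8.498, 8.16 and 7.81 in Rx, 7.74, 8.41 and 8.71 in IR and 8.61, 7.996 and 8.54 in Con. The groups did not overlap here either, and the log2 change against Con was -0.25 (SE 0.0719, adjusted p 0.193). The changes of the other ATPases were -0.21 for PSMC2, -0.21 for PSMC4, -0.24 for PSMC5 and -0.11 for PSMC6, with PSMC2 and PSMC6 free of overlap.

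Among the 11 other 19S subunits, 10 had lower means in Combo than in Con and the median log2 change was -0.15. PSMD2, the large scaffold that binds ubiquitin-like domains, was the exception, with 57.5, 55.7 and 54.01 FPKM in Combo, 58.7, 58.1 and 48.3 in Rx, 62.1, 60.3 and 54.7 in IR and 55.2, 55.95 and 53.8 in Con. Its Combo libraries spanned nearly the same range as the Con libraries, and its log2 change was 0.02 (SE 0.0812). Its partner PSMD1 had 29.95, 28.3 and 29.03 FPKM in Combo, 32.9, 29.4 and 32.0 in Rx, 28.2, 29.6 and 29.97 in IR and 28.4, 31.9 and 34.4 in Con. The ubiquitin receptor PSMD4 had 29.3, 26.8 and 24.6 FPKM in Combo, 30.9, 30.97 and 32.1 in Rx, 28.4, 33.7 and 34.3 in IR and 28.3, 32.1 and 33.0 in Con. In PSMD1 and PSMD4 the Combo range overlapped that of Con through Con 1.

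In the lid of the 19S particle, PSMD14 is the enzyme that cuts ubiquitin chains from substrates. It had 12.7, 12.4 and 12.6 FPKM in Combo, 15.1, 14.7 and 13.5 in Rx, 12.9, 14.2 and 17.2 in IR and 12.9, 13.6 and 14.3 in Con. The highest Combo library was just below the lowest of the other groups. PSMD3, a structural lid subunit (chr17:39980797-39997960, plus strand), had 31.2, 30.03 and 27.7 FPKM in Combo, 34.7, 35.7 and 32.4 in Rx, 31.7, 34.6 and 33.3 in IR and 32.3, 35.3 and 32.7 in Con. PSMD13, another lid subunit, had 16.4, 14.3 and 13.8 FPKM in Combo, 16.3, 16.9 and 16.02 in Rx, 16.3, 17.3 and 18.6 in IR and 16.1, 17.8 and 17.5 in Con. The Combo libraries of PSMD3 lay below all others, whereas Combo 1 of PSMD13 lay above Con 1. PSMD6 had 7.399, 7.24 and 6.67 FPKM in Combo, 8.68, 7.68 and 7.83 in Rx, 7.2, 8.13 and 9.51 in IR and 7.83, 7.95 and 8.19 in Con, with only IR 1 reaching into the Combo range. The 4 subunits not given by library had log2 changes of -0.16 (PSMD7), -0.17 (PSMD8), -0.14 (PSMD11) and -0.07 (PSMD12).

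**Figure D4:**
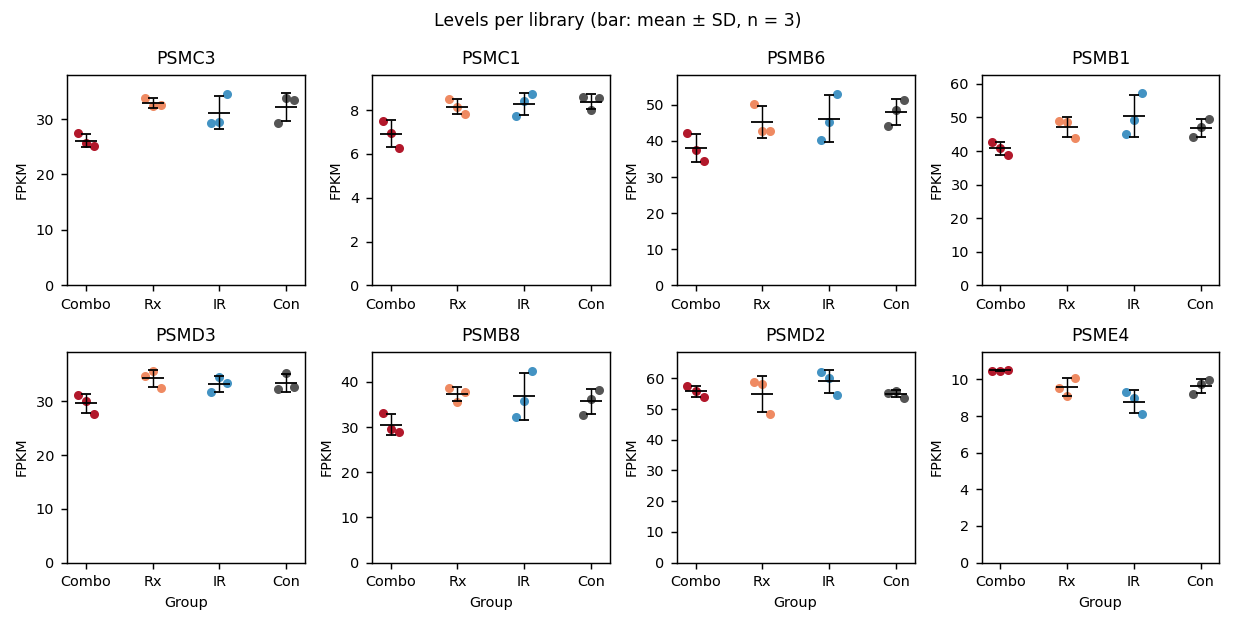
FPKM per library of 8 members in Combo, Rx, IR and Con, with the mean ± SD of 3 libraries on axes that start at 0. In PSMC3, PSMC1, PSMB1 and PSMD3 the Combo points lie below all others, in PSMD2 they lie among the others, and in PSME4 they lie above all others.

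The chaperones that build the proteasome also had lower means in Combo than in Con in 7 of 7 cases, with a median log2 change of -0.14. PSMG1 and PSMG2 form a dimer that starts the alpha ring. PSMG1 had 12.8, 12.6 and 11.1 FPKM in Combo, 14.3, 13.8 and 14.6 in Rx, 12.1, 13.96 and 16.9 in IR and 13.7, 15.1 and 14.3 in Con. PSMG2 had 14.4, 13.4 and 14.2 FPKM in Combo, 15.4, 16.5 and 15.6 in Rx, 15.6, 15.6 and 17.6 in IR and 16.04, 15.8 and 15.5 in Con. All Combo libraries of PSMG2 were below all others, and those of PSMG1 below all but IR 1. The second dimer is of PSMG3 and PSMG4. PSMG3 had 17.3, 18.6 and 16.9 FPKM in Combo, 17.99, 23.3 and 20.8 in Rx, 17.5, 22.9 and 27.1 in IR and 18.6, 22.8 and 20.7 in Con. PSMG4 had 3.41, 2.98 and 3.18 FPKM in Combo, 3.33, 3.33 and 3.28 in Rx, 3.43, 3.26 and 3.92 in IR and 3.47, 3.66 and 2.74 in Con. The Combo libraries of PSMG3 were below all Con libraries but not below Rx 1 or IR 1. Those of PSMG4 lay inside the Con range, and its log2 change of -0.03 (SE 0.0927) was the smallest in size among the chaperones.

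The chaperones of the ATPase ring were PSMD5, PSMD9 and PSMD10. PSMD5 had 6.3, 6.24 and 6.15 FPKM in Combo, 7.23, 6.38 and 5.71 in Rx, 6.68, 7.32 and 8.58 in IR and 6.66, 7.04 and 7.18 in Con. PSMD10, also known as the oncoprotein gankyrin, had 21.4, 20.8 and 18.5 FPKM in Combo, 24.1, 22.7 and 21.97 in Rx, 21.1, 23.2 and 25.6 in IR and 20.2, 24.3 and 21.6 in Con. PSMD9, near the filter, had 1.11, 1.02 and 1.11 FPKM in Combo, 1.41, 1.28 and 1.26 in Rx, 1.22, 1.16 and 1.39 in IR and 1.12, 1.29 and 1.46 in Con. Combo was free of overlap with Con in PSMD5 and PSMD9 and not in PSMD10, and Rx 3 of PSMD5 was lower than any Combo library. PSMC3IP, the recombination gene caught by its name, had 2.76, 2.203 and 1.87 FPKM in Combo, 3.77, 3.09 and 2.58 in Rx, 3.12, 2.52 and 2.09 in IR and 3.39, 4.72 and 2.34 in Con. Its libraries spread widely within each group, and its log2 change in Combo against Con, -0.43 (SE 0.191, adjusted p 0.375), had the largest SE of the members. Without it the median change of the 44 other tested genes was -0.18, with 42 of them lower.

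With either treatment alone the proteasome genes had no shared direction on the deposited scale. In Rx against Con, 22 of 45 members had a lower fitted mean, where 48.3% of all genes did, and the median log2 change was 0.00 with a range of -0.10 to 0.08; rescaled to TPM, 45 of 45 were lower, as were 76.4% of all genes. Of the members, 0 were free of overlap between Rx and Con in the lower direction, where 3.18% of all genes were, and 0 in the higher direction, where 4.6% were. The smallest p-values belonged to PSMD5, at a log2 change of -0.10 (SE 0.0912, adjusted p 0.9998), PSMB10, at 0.08, and PSMD14, at 0.08. In IR against Con, 18 of 45 members had a lower fitted mean, where 47.4% of all genes did, and the median was 0.02; rescaled to TPM, 42 of 45 were lower, as were 73.3% of all genes. Members free of overlap numbered 0 in both directions, where 4.98% of all genes were lower and 5.56% higher. PSME4 had the smallest p, with a log2 change of -0.12 (SE 0.06405, adjusted p 0.743), followed by PSMC3IP at -0.30 and PSMD1 at -0.10. The IR median rests on which library is kept: it was -0.07 without IR 3, 0.10 without IR 1 and -0.02 without Con 1. The count of 18 lower members was then 37 without IR 3 (49.1% of all genes) and 8 without IR 1 (46.3%). It was 29 without Con 1 (49.3%) and 12 without Con 2 (46.8%). The Rx median was -0.04 without Con 1, -0.01 without Rx 1 and 0.03 without Con 2 or without Con 3. The count of 22 lower members was 35 without Con 1 (50.3% of all genes) and 12 without Con 2 (46.8%). By limma 0 members passed in either comparison, at an unadjusted p under 0.05 as well. At that p 3.17% of all genes were lower and 3.69% higher in IR, and 0.897% lower and 2.36% higher in Rx. Voom gave 1 member lower in IR (6.04% of all genes) and 0 in Rx (1.69%) at that p. Rescaling to TPM gave 4 lower in IR (7.06% of all genes) and 2 in Rx (2.86%).

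**Figure D5:**
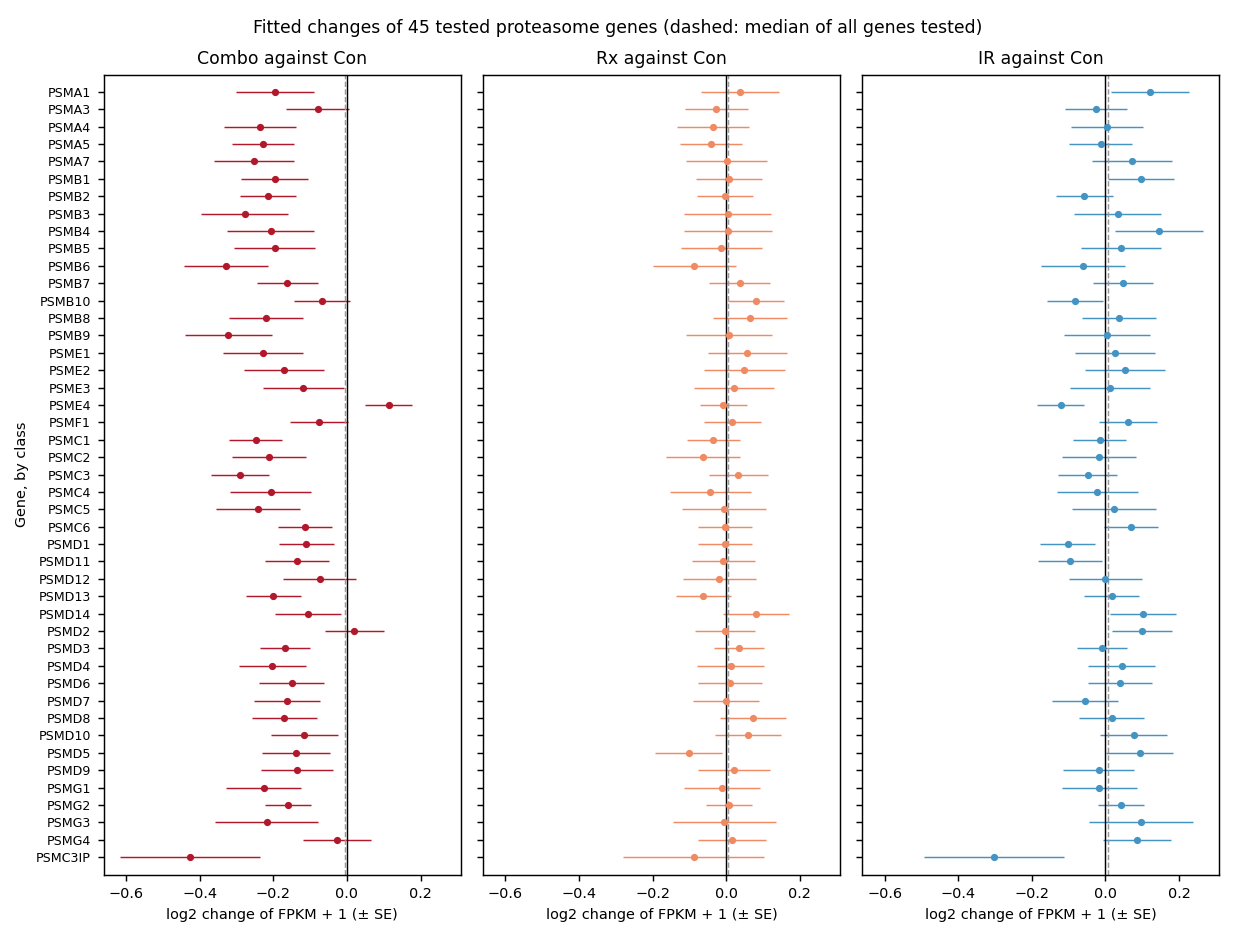
Fitted log2 changes of FPKM + 1 with their SE for the 45 tested members against Con, in Combo, Rx and IR. In Combo 43 of 45 points lie left of 0, with PSME4 and PSMD2 right of it, while in Rx and IR the points lie on both sides on the deposited scale; the dashed line is the median of all genes tested.

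Set against each single treatment, Combo was again lower for most members; these comparisons share the Combo libraries with each other and with Combo against Con. Against Rx, 43 of 45 members had a lower fitted mean, where 54% of all genes did, and the median log2 change was -0.19, against -0.01 for all genes. Rescaled to TPM, 39 of 45 were lower, where 34.6% of all genes were. All Combo libraries were below all Rx libraries in 29 members, where 12.7% of all genes were, and above them in 1, PSME4, where 8.26% were. At an unadjusted p under 0.05 by limma, 15 members were lower, where 6.3% of all genes were. Voom gave 12 lower (4.625% of all genes) and rescaling to TPM 7 (2.65%). Members higher at that p numbered 0, where 2.81% of all genes were. The count of 15 became 4 without Rx 1 (4.16% of all genes) or without Combo 3 (2.31%). It was 7 without Rx 2 (3.9%) and 6 without Combo 2 (4.74%). Without IR 1 (8.59%) or without IR 3 (8.67%) it was 23. Of the 4319 genes averaging 10 FPKM or more, 2938 had a lower fitted mean, with a median of -0.06. All Combo libraries were below all Rx libraries in 959 of them. By limma, 474 of them were lower at an unadjusted p under 0.05. PSMC3 had a log2 change of -0.32 (SE 0.0798, adjusted p 0.545), PSMD3 of -0.20 and PSMC1 of -0.21, and 0 of 45 passed the adjusted test (0% of all genes did).

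Against IR, 43 of 45 members were lower in Combo, where 52.6% of all genes were, with a median log2 change of -0.21. Rescaled to TPM, 38 of 45 were lower, where 34.0% of all genes were. Free of overlap were 11 members in the lower direction, where 11.6% of all genes were, and 1, PSME4, in the higher, where 8.53% were. IR 1 stood among the Combo libraries, with its median member at 90.4% of the Con mean. At an unadjusted p under 0.05 by limma, 23 members were lower, where 11.6% of all genes were. Voom gave 11 lower (7.4% of all genes) and rescaling to TPM 8 (5.63%). PSME4 was higher at that p, where 5.91% of all genes were. The count of 23 became 11 without IR 2 (8.64% of all genes) and 4 without IR 3 (5.82%). It was 8 without Combo 2 (9.92%) and 6 without Combo 3 (5.2%). Of the 4319 genes averaging 10 FPKM or more, 2905 had a lower fitted mean, with a median of -0.08. All Combo libraries were below all IR libraries in 830 of them. By limma, 1006 of them were lower at an unadjusted p under 0.05. Besides PSME4, the smallest p-values of members were those of PSMB1, at a log2 change of -0.29 (SE 0.08999, adjusted p 0.178), and PSMC1, at -0.23. No member passed the adjusted test (0 of 45, with 0% of all genes). Without IR 1, 10 members passed: PSME4, higher, and PSMA1, PSMA4, PSMA7, PSMB1, PSMB3, PSMB4, PSMD4, PSMD8 and PSMG3, lower, among 956 genes in all. Without IR 3 the median was -0.13.

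The interaction term asks whether the difference made by radiation was the same with QTP (Combo minus Rx) as without it (IR minus Con). It was below 0 for 44 of 45 members, where 55.1% of all genes were, with a median of -0.20 against -0.03 for all genes, and PSME4 was the member above 0. Rescaled to TPM, it was below 0 for 25 of 45 members and 24.1% of all genes; that scaling moved the median of all genes to 0.16, and the members' median stood 0.18 below it, against 0.17 below on the deposited scale. No member passed (0 of 45, lowest adjusted p 0.609, with 0% of all genes), and the departure of Combo from the sum of both treatments did not pass the test for any member. At an unadjusted p under 0.05 by limma, 6 members were below 0, where 5.31% of all genes were, and 1 above, where 2.32% were. Below 0 were 0 members by voom (2% of all genes) and 0 after rescaling to TPM (0.913%). The 6 became 26 without IR 1 (12.4% of all genes) and 14 without Combo 1 (5.87%). It was 2 without IR 2 (3.89%), Rx 1 (4.11%) or Rx 2 (3.01%). It was 1 without Con 1 (3.55%) or Combo 3 (2.27%), and 0 without IR 3 (2.49%) or Combo 2 (4.4%). Of the 4319 genes averaging 10 FPKM or more, 3107 were below 0, with a median of -0.11. By limma, 456 of them were below 0 at an unadjusted p under 0.05. PSME4 had an interaction of 0.24 (SE 0.0906, adjusted p 0.609), PSMC3 of -0.28 and PSMA1 of -0.36. The members' median was -0.13 without IR 3. Averaged over radiation, means with QTP were lower in 43 of 45 members, where 51.9% of all genes were lower, with a median of -0.10 (-0.06 without IR 3 and -0.03 without IR 3 and Combo 3 together). The smallest p-values there were those of PSMC1 (-0.13), PSMD13 (-0.14) and PSMD5 (-0.17), and 0 members passed, where 0.092% of all genes did. At an unadjusted p under 0.05 by limma, 6 members were lower, where 6.17% of all genes were, and 1 higher, where 5.21% were. Voom gave 7 lower (5.85% of all genes) and rescaling to TPM 15 (7.03%). The 6 became 24 without IR 1 (11.3% of all genes) and 10 without Con 1 (6.62%) or Combo 1 (6.68%). It was 2 without Con 2 (3.74%), Con 3 (4.97%) or Combo 2 (5.41%). It was 1 without IR 3 (4.18%), Rx 3 (4.46%) or Combo 3 (3.05%). Averaged over QTP, means with radiation were lower in 41 of 45 members, where 51.5% of all genes were lower, with a median of -0.09 (-0.04 without IR 1). PSMC3 (-0.19), PSMB2 (-0.13) and PSMC3IP (-0.32) led there, and 0 members passed, with 0% of all genes. At an unadjusted p under 0.05 by limma, 5 members were lower, where 5.17% of all genes were, and 0 higher, where 3.34% were. Voom gave 7 lower (6.3% of all genes) and rescaling to TPM 12 (5.8%). The 5 became 14 without IR 3 (7.56% of all genes) and 3 without IR 1 (4.96%) or Rx 2 (4.82%). It was 2 without Con 2 (3.37%), Con 3 (4.3%) or IR 2 (4.52%). It was 1 without Rx 1 (4.5%), Combo 2 (4.44%) or Combo 3 (3.57%). Of the 4319 genes averaging 10 FPKM or more, 2673 were lower in the QTP average and 2422 in the radiation average. By limma, 434 and 232 of them were lower at an unadjusted p under 0.05.

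Genes that work with the proteasome but fall outside the naming rule did not all share 1 direction in Combo against Con, and none passed the adjusted test. Of 19 partners, 15 had lower means, where 51.5% of all genes did. Their median log2 change was -0.04, against -0.01 for all genes. SEM1, the small lid subunit, had 4.51, 4.21 and 4.21 FPKM in Combo, 5.51, 6.05 and 5.43 in Rx, 4.598, 6.46 and 7.49 in IR and 4.88, 5.901 and 5.77 in Con. Its Combo libraries were below all others, with a log2 change of -0.29. ADRM1, a ubiquitin receptor of the 19S base, had 34.1, 32.6 and 31.6 FPKM in Combo, 39.1, 36.6 and 35.0 in Rx, 32.2, 34.8 and 37.7 in IR and 34.6, 35.4 and 40.3 in Con, a log2 change of -0.16. The log2 changes of the assembly factor POMP (-0.06) and the deubiquitinases USP14 (-0.03) and UCHL5 (-0.01) were smaller than their SEs. Of 6 genes of ubiquitin supply, 4 had lower means, where 51.5% of all genes did. Among the 4 were the ubiquitin genes RPS27A (-0.25) and UBB (-0.23). The E1 enzyme UBA6 (0.18) was higher in every Combo library than in any Con library, as were 10% of all genes.

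A list of 14 genes linked to NRF1 holds NFE2L1, its relative NFE2L2, processing enzymes, DNA-binding partners and ligases that degrade NRF1, so its members do not act in 1 direction, and DDI2 is also among the 19 partners. In Combo against Con 10 of the 14 had higher means, where 6317 of all 13038 tested genes did. Their median log2 change was 0.06. The ligase genes SYVN1 (0.14), FBXW7 (0.04) and BTRC (0.08) are among the 10. In Rx against Con 11 of the 14 were higher (median 0.02), where 6741 of all tested genes were. In IR against Con 6 were higher (median -0.04), where 6860 of all tested genes were. NFE2L1 itself had 45.9, 40.2 and 53.2 FPKM in Combo, 40.1, 44.7 and 38.96 in Rx, 43.9, 36.9 and 27.4 in IR and 40.8, 35.8 and 35.2 in Con. Its highest library was Combo 3 and its lowest IR 3, the libraries where most subunits were lowest and highest, and Combo 2 was below Con 1. The log2 change was 0.30 (SE 0.152, adjusted p 0.419). The small MAF partners had log2 changes of 0.41 (MAFF), 0.31 (MAFG) and -0.09 (MAFK). MAFF and MAFG were higher in every Combo library than in any Con library, as were 10% of all genes. The log2 changes were -0.03 for NFE2L2, the related factor NRF2, 0.07 for the protease DDI2 and 0.01 for the deglycosylase NGLY1, both of which process NRF1. Of 14 genes of class I peptide loading, which take up the peptides the immunoproteasome makes, 12 had higher means in Combo than in Con, with a median of 0.11. Of all 13038 tested genes, 6317 were higher in that comparison. The rise was not particular to Combo. Against Con, 9 of the 14 were higher in IR (median 0.08), where 6860 of all tested genes were. In Rx 10 were higher (median 0.07), where 6741 of all tested genes were. In Combo against IR 7 were higher and 7 lower, with a median of -0.005, where 6184 of all tested genes were higher. TAP1, which shares a promoter region with PSMB9, had a log2 change of -0.03 and TAP2 of 0.03. IRF1, a transcription factor of the interferon response, had a log2 change of 0.01 (SE 0.07298).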

How the data were processed

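RNA of 12 MSTO-211H libraries was measured by RNA-seq, with 4 groups of 3. Per the labels, RNA came from Trizol lysates and RNeasy columns, and NEBNext Ultra libraries were read on a NovaSeq6000. The authors deposited FPKM per gene, with the gene length they divided by. Per the submitters' processing notes, hg38 was the genome build. Aligner, counter, use of strand and scaling between libraries: not given in the sources used here. Multiplied by gene length, 100% of the deposited FPKM came out as whole reads (within 0.01), which gave read totals of 13188257 to 18630958. The median-of-ratios factor of the deposited FPKM was 1.01 in each library, so such a scaling was already in the values. Every value column was mapped to a sample, and 0 were left unmapped.

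Genes averaging 1 FPKM or more (13038) were tested on log2(FPKM + 1), which understates the change of low genes, with limma 3.58.1 in R 4.3.3: group means, variance trend, two-sided tests, all 12 libraries sharing 1 spread, and Benjamini-Hochberg adjustment over all genes at 0.05. Precision is limited by 3 libraries a group. The script was tested on simulated data. Alternatives were a pseudocount of 0.1, no filter, a filter of 5 FPKM, TPM, median-of-ratios scaling, only the groups compared, a replicate block, protein-coding genes alone, voom on the recovered reads and each library left out. No 2 libraries of a group agreed within sampling noise.

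The members, the lists of partner genes and the tests were chosen with earlier results of these data known. Values per library were given by rule for catalytic subunits, ubiquitin receptors and PSMD14, activators, PSMF1, chaperones, the highest and lowest member of each class and the 3 members with the smallest p in each comparison; the other members are given by their changes. MAFF, MAFG, MAFK, RPS27A, UBB and UBA6 were named after their values were seen. The result of 1 partner gene is not reported here. Promoters came from RefSeq GRCh38.p14, and exon overlaps from GENCODE 29.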

Additional observations from a re-analysis of the deposited data

How the results depend on the processing

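Of the alternatives run on named genes, 947 values kept their direction and side of the threshold, 6 turned in sign and 2 passed it. Many of the 947 could not have turned in sign. Median-of-ratios scaling, the replicate block and protein-coding genes alone left the fitted change as it was or nearly so. So did using only the groups compared or leaving out a library outside the comparison. No named member passed the threshold before the alternatives, so keeping its side meant staying uncalled. The tally does not measure how firm the changes are. Limits are set by 3 libraries a group and an unknown counting of shared exons. Rescaled to TPM, the members' median change was -0.0913 in IR against Con, -0.106 in Combo against IR and -0.0193 in the interaction; the median of all genes moved to -0.09, 0.09 and 0.16 in those comparisons. Without IR 3 and Combo 3 together, the median in Combo against IR was -0.0983, from fewer libraries. On recovered reads in place of FPKM the immunoproteasome share was 30.6%, since reads are not divided by gene length. Leaving out 1 library at a time, 0 to 10 members passed in Combo against IR; the 10 passed without IR 1, when PSMB1 had an adjusted p of 0.0371 and PSME4 of 0.0433, and the cause was not tested. The median in Combo against Con then ran from -0.23 to -0.15. Named genes that turned in sign did so near 0: rescaled to TPM, PSMB10 (-0.0044) and PSMD14 (-0.0039) in Rx against Con, and with 1 library left out PSMD2 (-0.0022 to 0.0426) and PSMG4 (-0.1239 to 0.035) in Combo against Con; the cause was not tested. With the replicate number as a block (replicate block), 0 members passed in any comparison, the median in Combo against Con stayed at -0.20, and all genes called there numbered 90, against 0 without the block. By limma with the block, members lower at an unadjusted p under 0.05 numbered 13 in Combo against Con (8.22% of all genes). They numbered 20 against IR (12.5%), 14 against Rx (6.86%) and 2 in the interaction (5.3%). The QTP average had 4 (6.73%) and the radiation average 4 (5.77%). Deviations from the group means had a median correlation of 0.18 between same-numbered libraries (-0.21 to 0.35, 18 pairs) and of -0.08 between others (-0.27 to 0.26), and 11 of 12 libraries correlated best with one of their own number. All 3 same-numbered pairs exceeded 0.1 between IR and Con and between Rx and Con, where the block changed no call of a member; between Combo and each other group at least 1 pair was under 0.1; the labels do not say what a number stands for.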
